A study of Rattus norvegicus with 9 samples.

Results

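The genes that sense bacterial lipopolysaccharide (LPS) and those that restrain the NF-kB response to it were followed in rat livers by bulk RNA-seq. They were chosen by name, as Lbp, Cd14, Ly96, Tlr4, Tlr2, Myd88, Irak3, Nfkbia, Tnfaip3 and Acod1, with earlier results of these data known. Of these 10 genes, 9 matched a gene symbol among the 32883 genes of the tables, and each matched a single entry. The exception, Ly96, which encodes the TLR4 partner MD-2, was not analysed here. All 9 matched genes passed the filter on low counts and were among the 14089 genes tested.

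The 9 libraries came from 3 normal rats, 3 rats of the empty group and 3 rats of the UTOpiA group, called empty and UTOpiA livers below. The rats with acute-on-chronic liver failure (ACLF) were male Sprague-Dawley rats of 8 to 11 weeks, whose common bile duct had been ligated for 21 days (bile duct ligation, BDL) before an intraperitoneal LPS dose of 0.25 mg/kg. From 1 h after LPS, their blood was circulated outside the body for 2 h, either through an empty circuit or through UTOpiA. The UTOpiA circuit holds a column for granulocyte and monocyte/macrophage apheresis (GMA), whose beads adsorb these leukocytes, and a column of alginate-encapsulated hepatocyte-like cells (iHLCs). The iHLCs derive from human induced pluripotent stem cells. Livers of ACLF rats were taken 24 h after LPS, from surviving rats picked at random, and the normal livers had neither BDL, LPS nor circulation. BDL, LPS and the circuit were thus changed together against normal livers and cannot be told apart there. By design, the empty and UTOpiA groups differ by the contents of the circuit. They also differ in survival, which the paper reports as much lower with the empty circuit than with UTOpiA. Only survivors were sampled, and the part of this selection in the differences between the empty and UTOpiA groups was not tested.

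LPS sensing works as a relay. LPS-binding protein (LBP), a plasma protein made mainly by hepatocytes, lifts LPS from bacterial membranes and hands it to CD14, which passes it to MD-2 on TLR4. The receptors TLR4 and TLR2 signal through the adaptor MyD88 to free NF-kB, and NF-kB switches on its own brakes, among them IkBa (Nfkbia), which holds NF-kB in the cytosol, and the ubiquitin-editing enzyme A20 (Tnfaip3). IRAK-M (Irak3) blocks the kinases downstream of MyD88, and the mitochondrial enzyme encoded by Acod1 makes itaconate, an anti-inflammatory metabolite of LPS-activated macrophages. In the liver, Kupffer cells are the resident macrophages that meet LPS arriving from the gut.

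Between 14241172 and 17321677 reads were counted on genes per library. Levels are given as TPM, the authors' values scaled by gene length and library, as mean ± SD of n = 3 livers. Fold changes come from edgeR on the counts after TMM normalisation, with SE, and a gene was called where it changed more than 2-fold with a p, adjusted by Benjamini-Hochberg across the genes tested, of less than 0.05. The scales differ, because the median gene was higher by a further 0.39 to 0.45 on the log2 scale in empty livers against normal livers when TPM was used. Ratios between genes were compared on TPM by exact permutation (two-sided), where 3 livers against 3 allow no p below 0.1. The defining hepatocyte gene Alb stood at 114722 to 127172 TPM in normal livers and at 12840 to 33608 TPM in ACLF livers, so the hepatocyte marker was abundant in all 9 livers and lower in the ACLF livers. Libraries of a group differed by at least 17.6 times what counting noise allows (chi-square per degree of freedom).

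In empty livers, 8 of the 9 genes were called higher than in normal livers, beside 20.7% of all genes tested, and 0 were called lower. Among the 8, Acod1 had 0 reads in normal livers and so passed the count filter through the ACLF livers, and its call was lost with no count filter. The gene not called was Myd88, which had an adjusted p of 0.00581 in edgeR's test and a fold change of 1.62. In UTOpiA livers, 6 of the 9 were called higher than in normal livers, beside 18.2% of all genes, namely Lbp, Tlr4, Tlr2, Irak3, Nfkbia and Tnfaip3. Between the UTOpiA and empty groups, edgeR called 0 of the 9, beside 0.0% of all genes in either direction, and all 9 fitted changes lay below 0. That of Tlr4, at -0.0012 ± 0.39, was level with 0. The median fitted log2 fold change of the 9 genes was 3.38, 1.82 and -0.75 in these comparisons, beside 0.04, 0.05 and 0.00 over all genes tested. Both comparisons with normal livers share the normal livers, so their values stand side by side below and are not independent of each other.

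**Figure D1:**
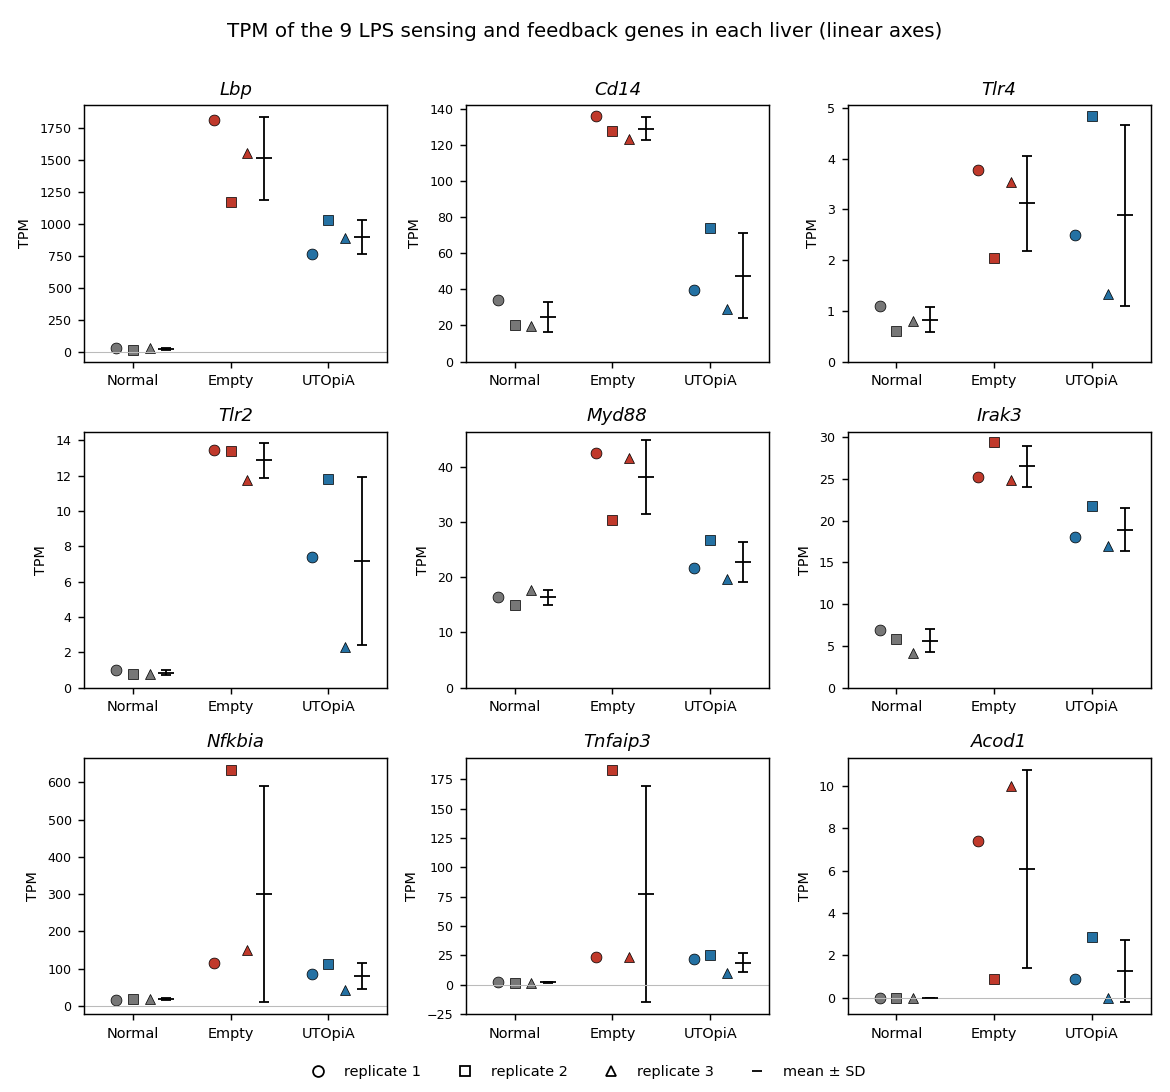
TPM (y axis, linear, 1 panel per gene) of the 9 genes in each liver of the normal, empty and UTOpiA groups (x axis), with bars for mean ± SD of 3 livers. All 9 genes are higher in every empty liver than in every normal liver, and replicate 2 of the empty group stands far above the other livers in Nfkbia (634 TPM) and Tnfaip3 (183 TPM).

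The LPS carrier Lbp (ENSRNOG00000014532, chr3:154786215-154813464, plus strand, positions as in the tables) was the most abundant of the 9 genes in both ACLF groups. It measured 29.9, 16.6 and 27.9 TPM in normal livers, 1813, 1173 and 1554 TPM in empty livers and 766, 1031 and 892 TPM in UTOpiA livers. No ACLF liver came near the normal range, and on TPM every UTOpiA liver was below every empty liver. On counts scaled by TMM library size alone (CPM), replicate 3 of the UTOpiA group, at 1501, exceeded replicate 2 of the empty group, at 1407, so this last separation held on the TPM scale only. The means were 24.8 ± 7.17, 1513 ± 322 and 896 ± 133 TPM. By edgeR, Lbp rose by 5.41 ± 0.37 (log2, SE) in empty livers (adjusted p = 4.23e-05) and by 4.86 ± 0.36 in UTOpiA livers (adjusted p = 7.02e-05). The change of the UTOpiA group against the empty group was -0.55 ± 0.31, with an adjusted p of 0.577 in edgeR's test.

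The co-receptor Cd14 (ENSRNOG00000017819, chr18:29560365-29562153, minus strand), carried mainly by monocytes and macrophages, had the tightest values in empty livers. It measured 34.2, 20.02 and 19.5 TPM in normal livers, 136, 128 and 123 TPM in empty livers and 39.5, 74.1 and 28.9 TPM in UTOpiA livers. The lowest UTOpiA liver thus fell within the normal range, and the highest was below every empty liver. Means were 24.6 ± 8.36, 129 ± 6.45 and 47.5 ± 23.6 TPM. Cd14 rose by 1.88 ± 0.28 in empty livers (edgeR, adjusted p = 6.88e-04), whereas its change in UTOpiA livers against normal livers was 0.57 ± 0.27 (adjusted p = 0.123), with 0.28 without replicate 2 of the UTOpiA group and 0.88 without replicate 1 of the normal livers, below 2-fold in both cases. Against the empty group it was lower in UTOpiA livers in 3 of 3 livers, by a fitted -1.31 ± 0.27, which had the smallest adjusted p of the 9 genes in that comparison but did not pass (unadjusted p = 7.66e-04, adjusted p = 0.208). The call depended on the tool and on 1 liver. DESeq2 called Cd14 lower at -1.33 (adjusted p = 0.00389), beside 0.511% of the genes it tested, and edgeR did so without replicate 2 of the UTOpiA group at -1.60 (adjusted p = 0.04997, beside 0.119% of genes).

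The receptors Tlr4 and Tlr2 were expressed at much lower levels than Lbp and Cd14. Tlr4 (ENSRNOG00000010522, chr5:82587420-82601052, plus strand), the LPS receptor, measured 1.08, 0.598 and 0.799 TPM in normal livers, 3.78, 2.05 and 3.53 TPM in empty livers and 2.49, 4.83 and 1.33 TPM in UTOpiA livers. Every ACLF liver was above every normal liver, and the UTOpiA livers spanned the whole range of the empty livers and beyond. Its log2 change was 1.39 ± 0.41 in empty livers (edgeR, adjusted p = 0.0192) and 1.39 ± 0.41 in UTOpiA livers (adjusted p = 0.0240). Against empty livers the change was 0.00 ± 0.39 (adjusted p = 1.00). Depth bears on these values, since Tlr4 had 17 to 29 reads in normal livers and 41 to 149 reads in ACLF livers. The call against normal livers was lost without replicate 2 or 3 of the normal livers in both comparisons (adjusted p = 0.0573 to 0.0880), without replicate 1 of the empty group in the empty comparison (0.0647) and without replicate 2 of the UTOpiA group in the other (0.0923), and in the UTOpiA comparison it was also lost with limma on log2(TPM + 1) (0.0521).

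Tlr2 (ENSRNOG00000009822, chr2:182840727-182846061, minus strand), which recognises bacterial lipoproteins, measured 1.01, 0.771 and 0.806 TPM in normal livers, 13.4, 13.4 and 11.7 TPM in empty livers and 7.39, 11.8 and 2.30 TPM in UTOpiA livers. The empty livers differed among themselves by no more than 1.14-fold, while the highest UTOpiA liver was 5.12 times the lowest and overlapped with the lowest empty liver. Tlr2 rose by 3.38 ± 0.42 in empty livers (edgeR, adjusted p = 3.30e-04) and by 2.63 ± 0.42 in UTOpiA livers (adjusted p = 0.00149). Against the empty group the change was -0.75 ± 0.36 (adjusted p = 0.510), with -1.15 without replicate 2 and -0.40 without replicate 3 of the UTOpiA group.

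The adaptor Myd88 (ENSRNOG00000013634, chr8:128022473-128026841, minus strand) was already present in normal livers and moved little. It measured 16.3, 15.03 and 17.8 TPM in normal livers, 42.4, 30.4 and 41.5 TPM in empty livers and 21.7, 26.6 and 19.7 TPM in UTOpiA livers. On TPM the groups were separate, in the order normal, UTOpiA and empty, and on CPM the UTOpiA livers overlapped with normal livers. The edgeR change was 0.70 ± 0.16 in empty livers and 0.15 ± 0.16 in UTOpiA livers (adjusted p = 0.494). On log2 TPM, limma put the change in empty livers at 1.16 to 1.20, past the 2-fold threshold, a setting that changes the scale, the tool and the gene filter at once. Against the empty group it was -0.55 ± 0.16 (edgeR, unadjusted p = 0.00612, adjusted p = 0.348).

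Irak3 (ENSRNOG00000004226, chr7:64923615-64982281, minus strand), the inhibitor IRAK-M, kept its call in both ACLF groups. It measured 6.87, 5.80 and 4.14 TPM in normal livers, 25.2, 29.4 and 24.9 TPM in empty livers and 18.0, 21.8 and 17.004 TPM in UTOpiA livers. The means were 5.60 ± 1.37, 26.5 ± 2.504 and 18.9 ± 2.52 TPM, and the 3 groups did not overlap on TPM, although the ACLF groups did on CPM. Irak3 rose by 1.73 ± 0.19 in empty livers (edgeR, adjusted p = 1.94e-04) and by 1.44 ± 0.19 in UTOpiA livers (adjusted p = 6.50e-04). Both calls held under every alternative and with each library left out. The change of the UTOpiA group against the empty group was -0.29 ± 0.19 (adjusted p = 0.626).

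Nfkbia and Tnfaip3, the feedback genes that NF-kB itself induces, were far higher in ACLF livers, and 1 empty liver stood apart in both. Nfkbia (ENSRNOG00000007390, chr6:76267228-76270457, minus strand) measured 14.5, 18.4 and 19.4 TPM in normal livers, 114, 634 and 150.5 TPM in empty livers and 86.4, 113 and 42.5 TPM in UTOpiA livers. The highest UTOpiA liver was just below the lowest empty liver, and no ACLF liver overlapped with normal livers. Tnfaip3 (ENSRNOG00000049517, chr1:14402913-14412807, minus strand) measured 2.56, 1.73 and 1.899 TPM in normal livers, 23.6, 183 and 24.1 TPM in empty livers and 21.6, 25.0 and 9.98 TPM in UTOpiA livers. The UTOpiA livers overlapped with the empty livers, of which replicate 2 stood far above the rest.

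Nfkbia rose by 3.59 ± 0.65 in empty livers (edgeR, adjusted p = 0.00234) and by 1.83 ± 0.61 in UTOpiA livers (adjusted p = 0.0418). Tnfaip3 rose by 4.72 ± 0.88 (adjusted p = 0.00277) and by 2.82 ± 0.83 (adjusted p = 0.0267). Without replicate 2 of the empty group the changes in that group were 2.38 ± 0.24 for Nfkbia (adjusted p = 1.23e-04) and 3.00 ± 0.27 for Tnfaip3 (adjusted p = 7.02e-05). Both were thus smaller and more precise. The UTOpiA calls of both genes were lost in edgeR's test without any 1 of the normal livers or without replicate 1 or 2 of the UTOpiA group, with adjusted p between 0.0580 and 0.123, and with no count filter (0.0892 for Nfkbia and 0.0761 for Tnfaip3). DESeq2 gave no p for Tnfaip3 in any comparison. Between the UTOpiA and empty groups the changes were -1.77 ± 0.60 for Nfkbia (adjusted p = 0.405) and -1.90 ± 0.76 for Tnfaip3 (adjusted p = 0.454). Without replicate 2 of the empty group they were -0.55 ± 0.24 (adjusted p = 0.309) and -0.18 ± 0.25 (adjusted p = 0.786), so most of the fitted difference came with that liver.

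Acod1 (ENSRNOG00000009919, chr15:93612971-93622358, plus strand) had 0 reads in each of the 3 normal livers, which allows up to 3 reads per library. It had 260, 29 and 331 reads (7.40, 0.893 and 9.99 TPM) in empty livers and 26, 93 and 0 reads (0.878, 2.86 and 0 TPM) in UTOpiA livers. These limits cover counting error only. All empty livers were above the limit, and 1 UTOpiA liver was not. The mean CPM of the empty group was at least 41.2-fold higher than the limit of 3 counts per library in normal livers, with an adjusted p of 0.0161 in edgeR's test, which became 0.0628 with no count filter. In UTOpiA livers it was at least 8.51-fold higher on the mean, a bound that was 3.38-fold without replicate 2 of that group, with an adjusted p of 0.0655, which fell under the threshold without replicate 2 of the empty group (0.0473) or replicate 3 of the UTOpiA group (0.0277) and in DESeq2 (0.00814). The fitted change against empty livers was -2.23 ± 1.24 (adjusted p = 0.586), and -3.55 without replicate 2 of the UTOpiA group (adjusted p = 0.325).

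**Figure D2:**
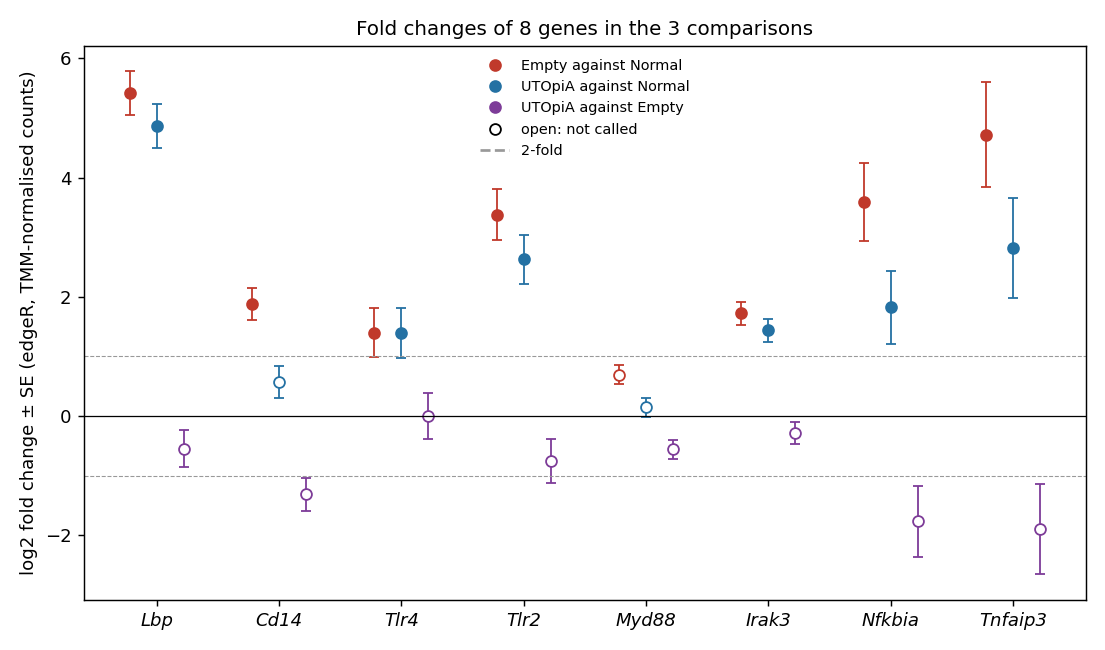
Log2 fold change ± SE (y axis, edgeR on TMM-normalised counts) of 8 genes (x axis) for the empty group against normal, the UTOpiA group against normal and the UTOpiA group against the empty group, with filled points for called genes and dashed lines at 2-fold. Acod1 is left out because it had 0 reads in normal livers. The points of the UTOpiA group against the empty group are all open, and Cd14, at -1.31, lies furthest from 0 in units of its SE.

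Overlap between the livers of the groups was also counted. All 9 genes, Acod1 with 0 reads in normal livers among them, were higher in every empty liver than in every normal liver, beside 53.4% of all genes tested on TPM and 32.4% on CPM. In UTOpiA livers against normal livers, 7 genes were separate on TPM, beside 39.0%, and 6 on CPM, beside 30.8%. Compared with empty livers, 5 genes were separate and lower on TPM, beside 8.62%, namely Lbp, Cd14, Myd88, Irak3 and Nfkbia. On CPM, 3 of them were, beside 5.97%, namely Cd14, Myd88 and Nfkbia. At an unadjusted p under 0.05, edgeR found 4 of the 9 genes lower in UTOpiA livers, beside 4.56% of all genes, and 0 higher, beside 5.77%. The 4 were Cd14, Myd88, Nfkbia and Tnfaip3. Without replicate 3 of the UTOpiA group, Nfkbia (unadjusted p = 0.0625, edgeR) and Tnfaip3 (0.104) did not pass, nor did Tnfaip3 without replicate 2 of the empty group (0.479).

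Single livers and the tool moved these counts in places. DESeq2 called 7 of the 9 genes higher in empty livers, beside 19.6% of the genes it tested, and 6 in UTOpiA livers, beside 18.1%. It gave no p for Tnfaip3, which is absent from both counts for that reason. Acod1, without reads in normal livers, is in both. Without replicate 2 of the empty group edgeR called 8 higher in empty livers, beside 20.4%, and 7 in UTOpiA livers, beside 18.8%. Both counts again include Acod1, which passed the count filter through the ACLF livers. Without replicate 2 of the UTOpiA group 3 were called in UTOpiA livers, beside 14.6%, namely Lbp, Tlr2 and Irak3, and without replicate 2 of both ACLF groups 5 were, beside 16.5%. With both left out, Cd14 was the 1 gene called lower in UTOpiA than in empty livers, at -1.60 (edgeR, adjusted p = 0.0118), beside 2.33% of genes called lower and 3.66% higher, a choice made after the values were seen.

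The livers of a group did not move as one. In UTOpiA livers, replicate 2 had the highest TPM for 9 of 9 genes and replicate 3 the lowest for 8 of 9. On CPM, replicate 2 was highest for 5 (Cd14, Tlr4, Tlr2, Nfkbia and Acod1) and replicate 3 lowest for 6, while replicate 3 was highest for Lbp, Myd88 and Irak3. In empty livers, replicate 2 had 4.796 times the mean TPM of the other replicates for Nfkbia and 7.69 times for Tnfaip3, ratios larger than those of 99.1% and 99.5% of all genes tested. Across genes, this liver also stood further from replicates 1 and 3 (chi-square per degree of freedom 212 and 164) than those from each other (43.8). Its departure was thus not confined to the 9 genes. In that same liver Acod1 was 9.73-fold below the mean of the other replicates, a ratio with 0.568% of genes below it. Cd14 and Tlr2 were level there, at 0.988 and 1.07 times the mean of the other replicates, and Lbp, Tlr4 and Myd88 were lower, at 0.697, 0.560 and 0.724 times. The NF-kB-induced inhibitors and Acod1 therefore went opposite ways in 1 liver, while the LPS co-receptor held its level.

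**Figure D3:**
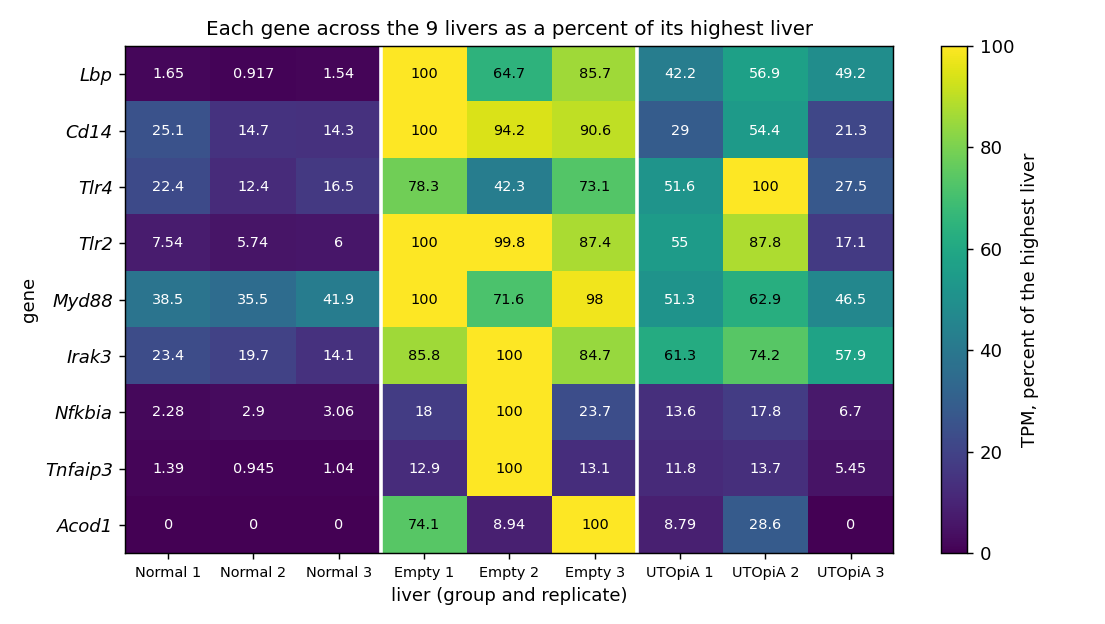
TPM of each gene (y axis) in each liver (x axis) as a percent of that gene's highest liver, in colour and as printed values. Replicate 2 of the empty group is at 100 for Nfkbia and Tnfaip3, with every other liver at or below 23.7, and at 8.94 for Acod1.

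Most cell type marker lists also differed between normal and ACLF livers, not always in the direction of the 9 genes. In bulk RNA, fewer cells of a type and less RNA per cell cannot be told apart. The summed TPM of 11 Kupffer cell and macrophage markers was 504 to 601 in normal livers, 1781 to 2465 in empty livers and 912 to 2290 in UTOpiA livers, with 8 of the 11 called higher in empty livers, beside 20.7% of all genes, and 7 in UTOpiA livers, beside 18.2%. For 6 monocyte markers the sums were 19.7 to 31.0, 339 to 923 and 203 to 1134 TPM, and for 12 neutrophil markers 2.35 to 5.96, 191 to 1123 and 176 to 513 TPM. In ACLF livers the monocyte sums were mostly Lyz2, at 169 to 1043 TPM. The neutrophil sums were mostly S100a8 and S100a9, at 503 and 565 TPM in replicate 3 of the empty group, the liver with the highest sum. Of the 12 neutrophil markers 6 passed the count filter, and these had 0 to 15 reads in normal livers, so they passed it through the ACLF livers and their calls are not counted here. The defining genes Mpo, Elane, Prtn3, Cxcr2 and Ltf were at 0 in all normal livers, and in ACLF livers Cxcr2 had 12 to 136 reads, Mpo, Elane and Prtn3 had no more than 9 reads in any liver, and Ltf was at 0 in all 9 livers. Within UTOpiA livers, replicate 2 had the highest sum and replicate 3 the lowest in all 3 lists, as for Cd14, Tlr4, Tlr2, Nfkbia and Acod1 on both scales. In empty livers, replicate 2 had the lowest sum in all 3 lists, at 1781 TPM for macrophage, 339 TPM for monocyte and 191 TPM for neutrophil markers. The macrophage genes Cd68, Adgre1, Csf1r, C1qa, C1qb, C1qc and Cd163 were at their lowest empty level there, whereas Clec4f (228 TPM) and Cd5l (159 TPM), of the same list, were at their highest. The summed level of 10 hepatocyte markers was 175131 to 191737 TPM in normal livers, 46291 to 84838 in empty livers and 53788 to 82213 in UTOpiA livers, and in normal livers most of it was Alb. Of these 10 markers, 6 were called lower in empty livers, beside 11.1% of all genes, and 3 in UTOpiA livers, beside 6.81%, with 0 called higher. The hepatocyte product Lbp was higher in every ACLF liver than in every normal liver on both scales. Sums of stellate cell and fibroblast markers were 114 to 129, 1012 to 1980 and 625 to 1422 TPM, and those of cholangiocyte markers 15.002 to 25.7, 323 to 658 and 134 to 411 TPM. Those of sinusoidal endothelial markers overlapped between the groups, at 133 to 146, 137 to 230 and 119 to 169 TPM. None of the markers tested was called between UTOpiA and empty livers by edgeR. The part of these markers in the results above was not tested.

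**Figure D4:**
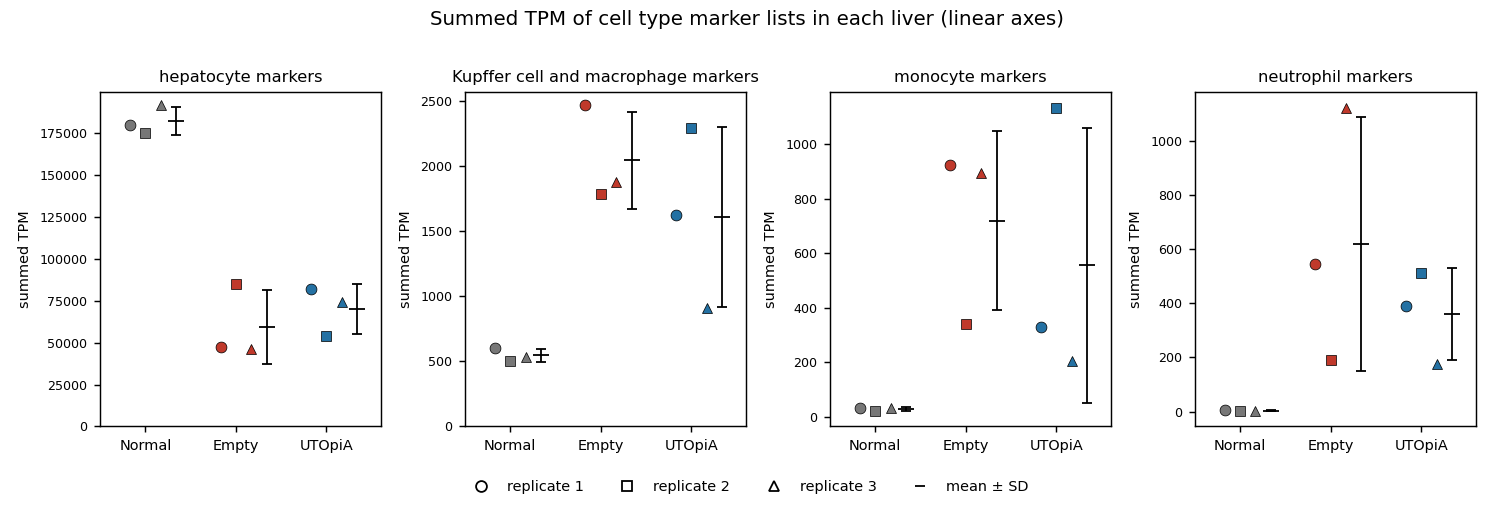
Summed TPM (y axis, linear) of the hepatocyte, Kupffer cell and macrophage, monocyte and neutrophil marker lists in each liver of the 3 groups (x axis), with bars for mean ± SD of 3 livers. Replicate 2 is the highest and replicate 3 the lowest UTOpiA liver in the 3 leukocyte lists.

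Ratios between genes of a liver do not depend on library scaling. Only the pairs below were compared, and how often other pairs of genes separate was not counted. Tlr4, a denominator here, had 17 to 29 reads in normal livers and 41 to 149 reads in ACLF livers. The TPM ratio of Cd14 to Tlr4 was 31.5, 33.4 and 24.4 in normal livers, 36.0, 62.6 and 34.9 in empty livers and 15.9, 15.3 and 21.7 in UTOpiA livers. The groups did not overlap, with the UTOpiA group lowest and below normal livers (29.8 ± 4.78, 44.5 ± 15.7 and 17.6 ± 3.56, exact permutation p = 0.1 in each comparison, the smallest possible). The Tlr2 to Tlr4 ratio was 0.933, 1.29 and 1.01 in normal livers, 3.55, 6.54 and 3.32 in empty livers and 2.96, 2.44 and 1.73 in UTOpiA livers, again without overlap and with the UTOpiA group in between. The Lbp to Cd14 ratio was 1.05 ± 0.336 in normal livers, 11.7 ± 2.23 in empty livers and 21.4 ± 8.61 in UTOpiA livers, also without overlap (exact permutation p = 0.1 each). The Irak3 to Myd88 ratio was 0.347 ± 0.0997, 0.720 ± 0.214 and 0.836 ± 0.0240, and here the empty and UTOpiA groups overlapped (exact permutation p = 0.4). The Nfkbia to Myd88 ratio was 2.69, 20.9 and 3.62 in empty livers and 3.97, 4.24 and 2.16 in UTOpiA livers, which also overlapped (exact permutation p = 0.7), and 1.07 ± 0.171 in normal livers.

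**Figure D5:**
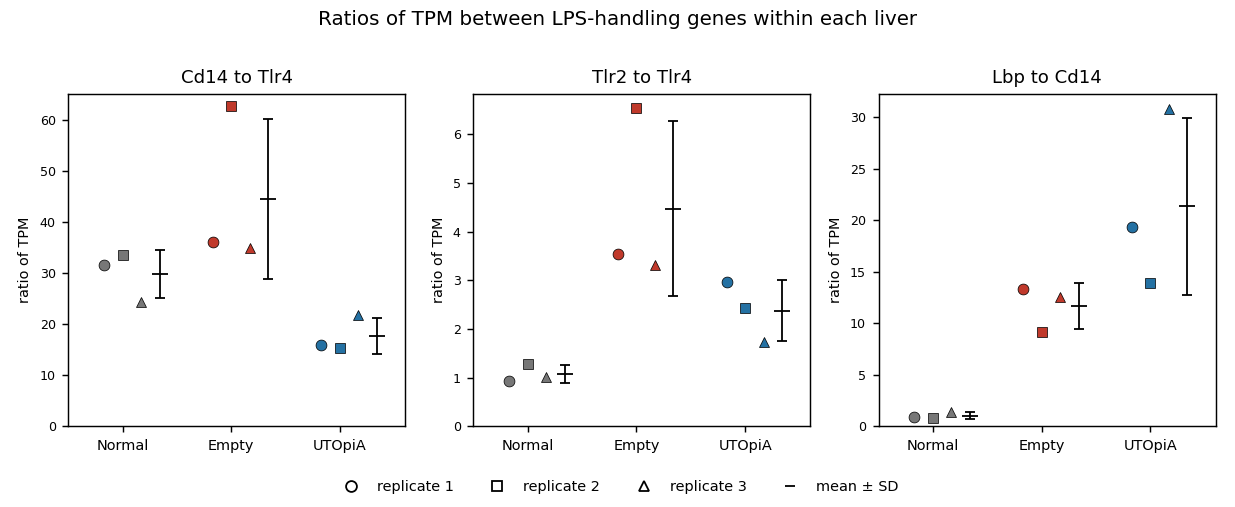
Ratio of TPM (y axis, linear) of Cd14 to Tlr4, Tlr2 to Tlr4 and Lbp to Cd14 within each liver of the 3 groups (x axis), with bars for mean ± SD of 3 livers. The 3 UTOpiA livers lie below all others for Cd14 to Tlr4 (15.3 to 21.7) and above all others for Lbp to Cd14 (13.9 to 30.8). The ratios to Myd88, in which the empty and UTOpiA groups overlapped, are not shown.

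The order of the levels also changed between groups, compared per length on TPM. In normal livers Lbp (24.8 TPM) and Cd14 (24.6 TPM) were at the top and overlapped, followed by Nfkbia and Myd88, which overlapped at 17.4 and 16.4 TPM, then by Irak3, Tnfaip3, and Tlr2 and Tlr4, which overlapped at 0.863 and 0.827 TPM. In empty livers Lbp stood alone at the top, Nfkbia overlapped with Cd14, and Cd14 overlapped with Tnfaip3 through replicate 2. Tlr4 had the lowest mean there, 3.12 ± 0.939 TPM, and overlapped with Acod1, which was at 0.893 TPM in replicate 2. In UTOpiA livers Lbp again stood alone and Nfkbia (80.6 ± 35.6 TPM) was second, overlapping with Cd14. From Myd88 (22.7 ± 3.57 TPM) down, each gene there overlapped with the next in order.

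Promoter sequence was searched for the kB consensus, the DNA motif that NF-kB dimers bind, in each of the genes with a promoter entry. The RefSeq promoters (rat build GRCr8, a different build from the positions above) were matched by symbol and gene ID for 8 of the 10 genes. The 250 bases before the annotated start of these genes were searched on both strands. The kB consensus was found in 4 of the 8, beside 6.41% of the 27457 promoters and 8.39% of the 10546 promoters of genes tested. These shares are a description, since several of the genes are known NF-kB targets, and Tlr4, called higher in both ACLF groups, held no match. The 4 sequences with a match are given 5′ to 3′ on the gene's strand with the matched stretches in capitals, Nfkbia from chr6:78597073-78597322, Tnfaip3 from chr1:15543980-15544229, Tlr2 from chr2:171504558-171504807 and Irak3 from chr7:57598632-57598881, all on the minus strand.
Nfkbia: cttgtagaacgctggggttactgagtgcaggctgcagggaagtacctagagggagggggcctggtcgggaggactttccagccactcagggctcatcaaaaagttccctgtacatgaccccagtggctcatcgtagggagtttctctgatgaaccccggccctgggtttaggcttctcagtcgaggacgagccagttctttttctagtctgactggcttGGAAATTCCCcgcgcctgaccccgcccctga
Tnfaip3: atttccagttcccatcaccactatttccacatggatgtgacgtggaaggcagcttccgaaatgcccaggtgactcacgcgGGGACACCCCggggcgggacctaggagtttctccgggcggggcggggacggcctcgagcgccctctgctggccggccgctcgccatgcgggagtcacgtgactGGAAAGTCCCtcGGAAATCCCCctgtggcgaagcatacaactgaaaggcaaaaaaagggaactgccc
Tlr2: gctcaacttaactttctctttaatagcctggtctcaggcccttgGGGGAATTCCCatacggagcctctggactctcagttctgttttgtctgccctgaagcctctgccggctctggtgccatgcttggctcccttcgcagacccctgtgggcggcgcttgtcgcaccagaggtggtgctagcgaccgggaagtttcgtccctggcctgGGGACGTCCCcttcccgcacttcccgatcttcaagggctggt
Irak3: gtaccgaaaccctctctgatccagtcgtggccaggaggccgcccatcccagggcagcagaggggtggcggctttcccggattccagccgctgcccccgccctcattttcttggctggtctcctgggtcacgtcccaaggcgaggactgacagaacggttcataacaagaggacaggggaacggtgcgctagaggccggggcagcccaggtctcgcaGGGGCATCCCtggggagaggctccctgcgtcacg

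Tnfaip3 held 3 separate stretches, which 0.0401% of all promoters reached, and Tlr2 held 2, reached by 0.342%. The Nfkbia match ended 22 bases before the start and the nearest Tnfaip3 match 46 bases before it. No match was found in this window of Cd14, Tlr4, Myd88 or Acod1, which says only that these letters are not there. The AP-1 motif TGANTCA (6.36% of promoters) was found in Myd88 and Tnfaip3, and the motif TTCNNNGAA that STAT factors bind (7.52%) in Myd88. The interferon-stimulated response element (ISRE, 3.29%) was found in Myd88, where it overlapped with the STAT match, the C/EBP motif TTGNNNAA (33.8%) in Cd14 and Nfkbia, and TATAAA (13.1%) in Acod1. These matches are descriptions of sequence. They were not measured as bound sites.

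The wider pathway was followed in a list of 112 other genes of LPS sensing and NF-kB control, of which 104 were tested. In empty livers 52 were called higher than in normal livers and 6 lower, beside 20.7% and 11.1% of all genes. In UTOpiA livers 34 were called higher and 2 lower, beside 18.2% and 6.81%. Of those called higher, 7 and 5 had no more than 3 reads in every normal liver (Trem2, Tnip3, Clec4e, Il10 and Il1rl1 in both, Nos2 and Ptgs2 in empty livers), and so passed the count filter through the ACLF livers. Without such genes, 45 and 29 of 97 were called higher. Between the UTOpiA and empty groups edgeR called 0 of the 104 in either direction, with 5 higher and 19 lower at an unadjusted p under 0.05, beside 5.77% and 4.56% of all genes, and DESeq2 called 1 higher and 8 lower, beside 0.352% and 0.511%. The median log2 change over the 104 was 1.30, 0.63 and -0.32 in these comparisons.

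Among 24 receptors and LPS-handling proteins, 16 were called higher in empty livers, beside 20.7% of all genes, and 14 in UTOpiA livers, beside 18.2%, Trem2 included in both, with 0 lower, beside 11.1% and 6.81%. Trem2, a lipid receptor of macrophages, had 0 reads in normal livers and was at least 11.9-fold higher in empty livers (7.62-fold without replicate 3) and 6.43-fold in UTOpiA livers. Tril, a TLR4 accessory protein, rose by 3.66 ± 0.41 and 4.02 ± 0.41 (edgeR, adjusted p = 1.91e-04 and 2.08e-04). Among 22 adaptors and kinases, to which Myd88 belongs by role, 4 were called higher in empty livers (Ticam2, Irak2, Map3k8 and Irf5) and 1 in UTOpiA livers (Irf5), beside 20.7% and 18.2% of all genes. These counts do not stand above the share of all genes, and the names are given because the counts are small. All 5 NF-kB subunits were fitted higher in both groups, and 3 of them (Nfkb1, Nfkb2 and Relb) were called in each, beside 20.7% and 18.2% of all genes, with medians of 1.83 and 1.04.

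Of 31 feedback inhibitors, 15 were called higher in empty livers, beside 20.7% of all genes, and 10 in UTOpiA livers, beside 18.2%, and 3 in each of these counts (Tnip3, Il10 and Il1rl1) had no more than 3 reads in every normal liver. The 2 and 0 called lower stand beside 11.1% and 6.81%, and nothing is read from them. Tnip3, which binds A20, had 0 reads in normal livers and 199, 117 and 114 reads in empty livers, at least 29.4-fold higher. In UTOpiA livers it had 27, 124 and 3 reads, at least 10.98-fold higher on the mean (3.96-fold without replicate 2), with replicate 3 at the limit of detection. Nlrp12, a negative regulator of NF-kB signalling, went the other way in empty livers, by -2.00 ± 0.41 (adjusted p = 0.00377), and measured -0.76 ± 0.39 in UTOpiA livers (adjusted p = 0.152).

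Of 22 itaconate-linked genes and LPS-induced effectors, 14 were called higher and 4 lower in empty livers, and 6 and 2 in UTOpiA livers, and of those higher 3 and 1 had no more than 3 reads in every normal liver. The higher counts stand beside 20.7% and 18.2% of all genes. The lower counts stand beside 11.1% and 6.81% of all genes, and nothing is read from either count as a group. The genes that fell include subunits of succinate dehydrogenase, the enzyme that itaconate inhibits. A link between their fall and itaconate was not tested. Sdha fell by 1.78 on the log2 scale in empty livers and by 1.49 in UTOpiA livers (edgeR, adjusted p = 2.61e-04 and 8.21e-04), and Sdhb fell by 1.41 and 1.09 (adjusted p = 2.20e-04 and 0.00102). Sdhd fell by 1.15 in empty livers, and so did Slc25a1, the mitochondrial citrate carrier, by 1.52. Among the induced effectors, Nos2, the inducible nitric oxide synthase, had 0 reads in normal livers, 55, 116 and 57 in empty livers and 3, 6 and 0 in UTOpiA livers. It was at least 15.7-fold higher in empty livers, and the UTOpiA comparison with the empty group had an adjusted p of 0.194. Clec4e, a macrophage lectin receptor, had 0 reads in normal livers and was at least 12.1-fold higher in empty livers and 4.57-fold in UTOpiA livers (1.51-fold without replicate 2). Ptgs2, the inducible cyclooxygenase, had 50, 1456 and 52 reads in empty livers, so its mean rested on replicate 2, the liver that also stood apart in Nfkbia and Tnfaip3. Among called genes of the wider list with a mean of at least 1 CPM, Lcn2, an iron-chelating acute-phase protein, had the largest fitted rise in UTOpiA livers. It rose by 10.25 ± 1.06 (edgeR, adjusted p = 2.79e-04), with 5359 to 6310 TPM there, 290.5 to 2523 TPM in empty livers and 2.95 to 5.03 TPM in normal livers. Against the empty group its change was 2.63 ± 0.75 (edgeR, adjusted p = 0.349), a positive fitted value. Those of the 9 genes were negative, that of Tlr4 being level with 0.

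The genes most alike in pattern were found by the root mean squared difference of standardised log2 CPM over the 9 livers, where 0 is identical. Nearest to Lbp was Sirpa (0.0878), to Cd14 Sema4b (0.281), to Tlr4 Pik3cg (0.174), to Tlr2 Fli1 (0.118) and to Myd88 Lmbr1 (0.2201). Irak3 was nearest to Csf2rb (0.0979), Nfkbia to Irak2 (0.151), Tnfaip3 to Maff (0.0833) and Acod1 to Actr3 (0.183). Cd14 thus had the least close neighbour of the 9 genes. The libraries are the same throughout, so these distances describe these 9 livers. Irak2, a kinase of the same receptor complex, measured 5.18, 4.79 and 4.97 TPM in normal livers, 15.7, 31.8 and 18.0 TPM in empty livers and 10.99, 15.1 and 7.998 TPM in UTOpiA livers, with the same order of livers within both ACLF groups as Nfkbia. Maff, a small transcription factor, measured 7.44, 60.6 and 7.01 TPM in empty livers and 6.87, 7.54 and 2.74 TPM in UTOpiA livers, with the same excess in replicate 2 of the empty group as Tnfaip3.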

How the data were processed

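Bulk RNA-seq of 9 rat livers (3 normal, 3 empty, 3 UTOpiA) was analysed from the tables the authors deposited, with groups and replicate numbers taken from the sample titles. Per the labels, the authors trimmed reads with Trimmomatic, aligned them with HISAT2 to rn6 and counted them with featureCounts, and they deposited raw read counts per gene and TPM, length-scaled values that total 1000000 in each library. The paper's methods name Cutadapt, the mouse build GRCm38 and an MGIEasy kit where the labels name Trimmomatic, rn6 and a NEBNext kit, so positions are given as in the tables and were not converted. Whether the counting used strand is not given in the sources used here, so overlapping and antisense genes could share reads.

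The count test was run in R 4.3.3 by edgeR 4.0.16, using filterByExpr on the 3 groups, TMM (factors 0.80 to 1.32), all 9 libraries, a mean per group and the robust quasi-likelihood test, which is two-sided. In simulated counts for the comparison of the empty group with normal livers, with 200 of 14089 genes changed 4-fold, it recovered 176 (88%) and called 14 unchanged genes. The changed genes were drawn from better-counted genes, in equal numbers up and down, and were far fewer than the genes called in the livers. These values therefore need not hold for the livers, nor for genes without reads in normal livers such as Acod1. Genes at 3 counts or fewer in every normal library were given lower bounds on their fold change, against 3 counts per library. The median SD of a gene's log2 CPM was 0.19 (normal), 0.29 (empty) and 0.30 (UTOpiA). The p-values measure the spread between these livers, which the labels call biological replicates.

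The genes were chosen, and the lists written, with earlier results of these data known. Of the wider list, up to 5 called genes per comparison and direction with the largest change and a mean of at least 1 CPM were named, and for each of the 9 genes up to 3 genes of the most alike pattern (prior count 2) were determined, of which the nearest is given. The markers Clec4f, Cd5l, S100a8, S100a9 and Lyz2, and the other macrophage genes, were named after their values were seen. Genes of the wider list without an entry are not analysed here. Alternatives were DESeq2 1.42.0, limma 3.58.1 on TPM (pseudocounts of 1 and 0.1, genes averaging 1 TPM or more, and pseudocount 1 on unfiltered genes), median-of-ratios factors, dropping the count filter, requiring 10 counts in all libraries, dropping the fold threshold, the 6 libraries compared only, the replicate number as a block, and each library left out. Leaving out replicate 2 of both ACLF groups together was added after the values were seen. Promoters are from RefSeq.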

Additional observations from a re-analysis of the deposited data

How the results depend on the processing

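Each of the 9 genes was fitted again under up to 19 alternatives per comparison. In the empty group against normal livers, 162 of 169 changes kept their direction and their side of the thresholds, 3 came past them (Myd88 with limma on TPM) and 4 fell short of them. In the UTOpiA group against normal livers these counts were 147, 3 and 18 of 168, and against the empty group 159 of 169 kept both. The number called higher in the empty group was 7 to 8 with a library left out. In the UTOpiA group it was 3 to 7 with a library left out, 3 without replicate 2 or replicate 3 of the normal livers or replicate 2 of the UTOpiA group, because Tlr4, Nfkbia and Tnfaip3 lost their calls, 4 with no count filter and 5 without replicate 2 of both ACLF groups. Between the ACLF groups 1 gene, Cd14, was called lower by DESeq2, without replicate 2 of the UTOpiA group (0 to 1 with a library left out) and without replicate 2 of both ACLF groups. The change of Tlr4 there, -0.0012, turned positive under the replicate block (0.0063) and with some libraries left out (-0.41 to 0.25 over all), and was -0.63 without replicate 2 of both ACLF groups. In the wider list, the 6 genes called lower in the empty group became 3 with limma (all 3 settings) and 15 with no fold threshold. The 2 called lower in the UTOpiA group became 1 with limma (all 3 settings), 9 with no fold threshold and 1 to 5 with a library left out, 4 without replicate 1, 1 without replicate 2 and 5 without replicate 3 of that group. The 52 and 34 called higher were 36 and 23 at 10 counts in every library, where fewer genes were tested. Between the ACLF groups the wider list had 1 higher and 8 lower by DESeq2, 3 and 13 without replicate 2 of both groups, and 0 to 1 and 0 to 2 with a library left out. The cause of these shifts was not tested. Same-numbered livers did not deviate together (correlations of -0.18 to 0.06), so the numbers were not taken as pairs. With the replicate number as a block 8, 6 and 0 of the 9 genes were called in the 3 comparisons and 43 and 29 of the wider list were called higher. Depth limits Tlr4 and Tlr2 in normal livers (17 to 29 reads) and Acod1, which had 0 there.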
